A study of Mus musculus with 18 samples.

Results

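The miR-204 and miR-211 family comprised 3 of the 1184 named entries in a table of small RNA counts from mouse kidney. The members were taken by name: mmu-miR-204-5p and mmu-miR-204-3p, the 2 arms of the hairpin in an intron of Trpm3, and mmu-miR-211-5p, the seed relative from an intron of Trpm1. The prefix mmu, for mouse, is left out below. All 3 passed the filter on low counts, which left 619 entries. The family was selected on measured values, namely the higher mean level of miR-204-5p in both diabetic groups than in control, and is described with its other arm and its seed relative. Levels and fold changes against control are therefore given as a description, without a test, and only treated against untreated diabetic kidney was tested. That test is not fully independent of the choice, since it compares the 2 groups whose levels entered the choice. The ratio tests below share this limit, as both use the miR-204-5p counts.

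The series compared 3 groups of 6 libraries. Control kidneys came from C57BL/6J mice given 0.9% saline. Diabetic nephropathy (DN) kidneys came from C57BL/KsJ mice given the same saline, and treated kidneys from DN mice of that strain on 10 mg/kg/day of germacrone, a sesquiterpene found in plants. The labels give no age, no diabetes allele and no statement that the libraries were made from different animals; p-values then measure only the spread between these libraries, which may be technical. Both diabetic groups differ from control in strain as well, and the effect of strain cannot be told apart from that of disease.

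Depth was 3700672 to 6654035 counts per control library. DN libraries had 3645173 to 7239343 counts and treated ones 3657879 to 5972069. Levels are given as CPM, a miRNA's counts relative to its library's size, after TMM scaling, which adjusts library sizes to a common reference. The kidney markers miR-192-5p, miR-194-5p, miR-10a-5p and miR-30a-5p were detected in 18 of 18 libraries, at a summed level of 44810 to 182300 CPM, lowest in DN 2. DN 2 stood apart: its median correlation of log2 CPM with its own group was 0.896, followed by 0.926 in DN 3 and 0.946 in control 2, and at least 0.958 in the other libraries. Values that moved without DN 2, or without all 3 of these libraries, are given both ways.

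A microRNA hairpin is cut by Dicer into a duplex, from which 1 arm is usually retained in Argonaute and the other mostly degraded. The retained strand recognises messenger RNAs mainly through its seed, bases 2 to 8 from the 5′ end. miR-204 is a microRNA of epithelia, known from retinal pigment epithelium, choroid plexus and kidney tubules, and has been reported to protect mouse kidney against injury. miR-211 is best known from melanocytes and pigment epithelium, where it is made together with its host Trpm1, a target gene of the transcription factor MITF.

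The sequences below, from RefSeq on GRCm38.p6, show why the 5p arms of the family form 1 seed group and at how few bases they differ. Capitals mark the seed.
miR-204-5p: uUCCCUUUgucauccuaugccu
miR-211-5p: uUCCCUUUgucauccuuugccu
miR-7670-3p: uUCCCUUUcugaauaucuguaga
miR-204-3p: gCUGGGAAggcaaagggacgu

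Of 1679 mature mouse miRNAs in the RefSeq table, 3 carried the seed UCCCUUU: miR-204-5p, miR-211-5p and miR-7670-3p. miR-204-5p and miR-211-5p were identical at 21 of 22 bases. The single difference was A17U, counted from the 5′ end, with the base of miR-204-5p first. Their first 16 bases, seed included, were the same. miR-7670-3p matched miR-204-5p without a break over the first 8 bases, and at 13 positions in all when aligned from the 5′ end, and its single value above 0 was 10 counts in treated 1. The 3p arm has another seed, CUGGGAA, which it shared with 1 other mature miRNA, miR-7684-5p, so the 2 arms of miR-204 would recognise different targets.

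The hairpins are printed to show where the measured arms lie, with the arms of the family in capitals.
Mir204: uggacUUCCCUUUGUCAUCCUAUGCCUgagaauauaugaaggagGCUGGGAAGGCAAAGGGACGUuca
Mir211: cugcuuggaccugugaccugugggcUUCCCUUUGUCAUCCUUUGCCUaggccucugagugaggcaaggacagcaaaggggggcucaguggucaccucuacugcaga

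Mir204 lies on the plus strand at chr19:22750605-22750672 (GRCm38.p6), and Mir211 on the plus strand at chr7:64205806-64205911. In GENCODE M21, on the same assembly, no exon of Trpm3 or Trpm1 overlapped its hairpin, so both are intronic and in the sense of the host. In the Trpm3 transcript with the widest span over the hairpin, Mir204 sits in intron 6 (chr19:22733172-22766633, 33462 bases). Mir211 sits in intron 6 of the Trpm1 transcript chosen in the same way (chr7:64204594-64208275, 3682 bases). Both hosts encode TRPM cation channels.

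The 5p arm of miR-204 carried nearly all of the family's counts, and its mean was higher in the DN and treated groups than in control.

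In control kidneys miR-204-5p was at 504.5, 497.2, 575.5, 305.1, 429.4 and 433.2 CPM in libraries 1 to 6. In DN it was at 903.1, 513.4, 1127, 884.2, 1166 and 982.6 CPM. In treated kidneys it was at 966.3, 1186, 583.9, 1205, 756.8 and 659.1 CPM. DN 2, at 513.4 CPM, was the only DN library within the control range, and treated 3, at 583.9, was the lowest treated library, just above the highest control. Among mouse names ordered by count, miR-204-5p ranked 94 to 128 in control libraries, 66 to 101 in the DN group and 64 to 99 in treated libraries. Counting error on these values was small: in control 4, the library with the fewest counts of it (1493.5), the level per total count, without TMM, was 317.9 CPM with a 95% Wilson interval of 302.3 to 334.6. Such intervals cover counting error only.

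miR-204-3p, the passenger arm, was counted 6, 31, 19, 10, 6 and 9 times in control 1 to 6. In DN it had 13, 13, 27, 35, 41 and 16 counts, and in treated kidneys 13, 20, 12, 12, 20 and 21. Scaled for depth, its level was 2.42 ± 1.19 CPM in control, 4.84 ± 2.57 in DN and 3.88 ± 0.951 in treated kidneys (mean ± SD, n = 6 each). DN 5 was highest at 9.15 CPM and control 1 lowest at 1.16, and the 3 groups overlapped. At 6 counts, the Wilson interval for control 1 ran from 0.516 to 2.46 CPM per total count, so single libraries of this arm say little.

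miR-211-5p was as scarce. Its estimated counts were 26.5, 14.5, 18.5, 8.5, 12 and 10.5 in control 1 to 6, and 7, 15, 12.5, 35, 28.5 and 22.5 in DN. Treated libraries had 29.5, 32.5, 5, 23, 21.5 and 17. These correspond to 2.86 ± 1.23 CPM in control, 3.79 ± 1.82 in DN and 5.09 ± 2.56 in treated kidneys (mean ± SD, n = 6 each). Treated 2 was highest at 8.80 CPM and treated 3 lowest at 1.57, below every control library, and the 3 groups overlapped.

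**Figure D1:**
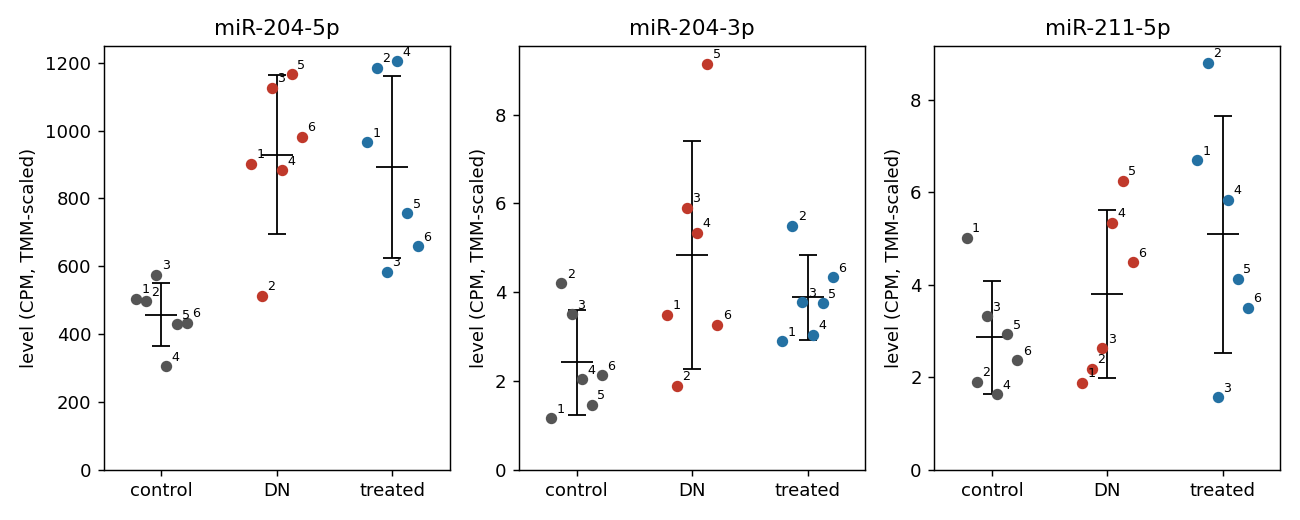
Levels of the 3 members in CPM (TMM-scaled) by group, with 1 point per library numbered by replicate, and bars for mean ± SD over 6 libraries. miR-204-5p lies at 305.1 to 575.5 CPM in control and reaches 1166 in DN and 1205 in treated kidneys, while the other 2 members stay below 10 CPM and their groups overlap.

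The deposited counts of miR-211-5p and miR-204-5p carried the same fractional part in every library. In 11 of 18 libraries both ended in 0.5 and in the others both were whole, so that their sum was always whole. Compared to 3 decimals, no other of the 1184 named entries had this pattern. The assignment of reads that match both sequences was not described by any source used here. Should such reads have been divided equally, miR-204-5p could have received at most as many of them as miR-211-5p was given in all. That bound was 0.208% of the miR-204-5p count in DN 1 and 1.01% in control 1, the lowest and highest of the 18 libraries, too little to move miR-204-5p. For miR-211-5p the whole count could consist of such reads, and its values are uncertain for that reason.

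**Figure D2:**
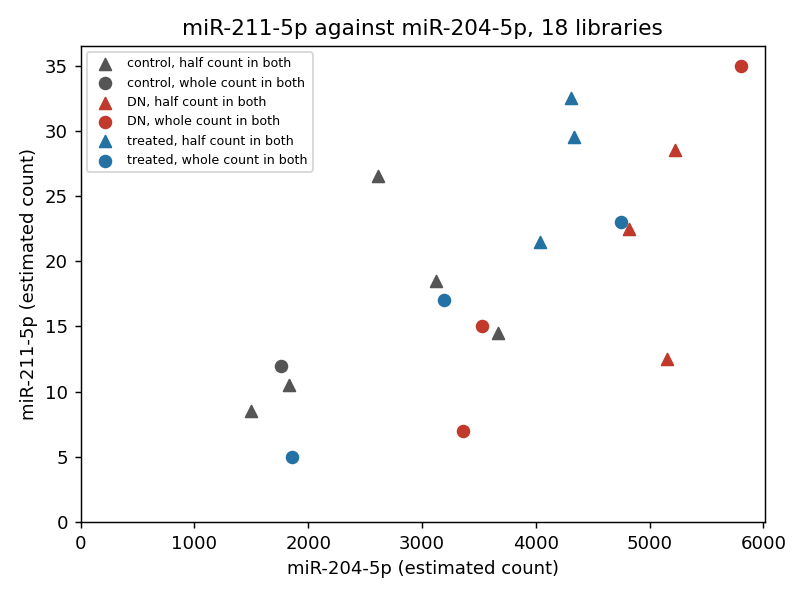
Estimated counts of miR-211-5p (vertical axis) against miR-204-5p (horizontal axis) in 18 libraries, coloured by group; triangles mark the 11 libraries in which both counts end in 0.5. miR-211-5p never exceeds 35 counts and lies mostly higher where miR-204-5p is higher.

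The first comparison, DN against control, addressed the state of the family in diabetic nephropathy. The mean of miR-204-5p was 929 ± 234 CPM in DN kidneys against 457.5 ± 92.0 CPM in control ones (mean ± SD, n = 6 each), a fitted log2 fold change (log2FC) of 1.02 with a standard error (SE) of 0.226, or 2.03-fold. The level in 5 of 6 DN libraries was above the highest control library. For the passenger arm miR-204-3p the log2FC was 0.98 (SE 0.416, 1.97-fold), with 5 of 6 DN libraries above the control median. For miR-211-5p it was 0.41 (SE 0.442), with 3 of 6 above the control median. All 3 members had a log2FC above 0, as did 350 of the 619 entries (56.5%), and the median over all entries was 0.075. Since this comparison was known when the family was chosen, these values describe it and support nothing further.

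In edgeR's quasi-likelihood test of DN against control, 0 of 619 entries (0%) passed an adjusted p of 0.05 (Benjamini-Hochberg), given as the background and not as a test of the members. At an unadjusted p under 0.05 there were 47 entries (7.59%), and DESeq2 called 4 and limma-voom with sample weights 91.

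Without DN 2 the log2FC of miR-204-5p against control was 1.17. Leaving out control 2, DN 2 and DN 3 together gave 884.2 to 1166 CPM in the other DN libraries (n = 4) against 305.1 to 575.5 in control (n = 5), with no overlap, as for 43 of 619 entries (6.95%). DN 2 was the only DN library within the control range, so leaving it out separates the groups by construction.

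The comparison of treated kidneys with control addressed whether the family stood apart from control under germacrone as well. miR-204-5p was at 893 ± 267 CPM in treated kidneys (mean ± SD, n = 6), a log2FC of 0.96 over control (SE 0.226, 1.95-fold). Every treated library lay above every control library on the TMM scale, which held for 22 of 619 entries (3.55%), miR-204-5p included. The closest values were 583.9 CPM in treated 3 and 575.5 in control 3. miR-204-3p had a log2FC of 0.66 (SE 0.420), with 6 of 6 treated libraries above the control median, and miR-211-5p one of 0.83 (SE 0.441), with 5 of 6. All 3 members were again above 0, as were 308 of the 619 entries (49.8%), at a median over all entries of −0.0035. No entry passed here either (0 of 619, 0%, by edgeR), with 121 (19.5%) at an unadjusted p under 0.05, 24 called by DESeq2 and 106 by limma-voom. Both comparisons against control share the same 6 control libraries, so their like values are not 2 independent observations.

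Whether the groups overlapped depended on the scaling. With TMM factors the treated group was clear of control and the DN group was not. On the authors' normalized column it was the other way round: DN values ran from 2792 to 5548 against 1447 to 2727 in control, without overlap (2 of 619 entries, 0.323%), and treated values from 2653 to 5619, overlapping (16 other entries were clear of control, 2.58%). With RLE factors both diabetic groups overlapped control, where 1 entry (0.162%) was clear of it in DN and 20 (3.23%) in treated kidneys. For library size alone, which left 0 entries clear in DN (0%) and 8 (1.29%) in treated kidneys, treated 3 fell to 485.2 CPM, and 4 of 6 treated libraries lay above the highest control at 655.3. The ratio of the treated to the control mean stayed between 1.70 and 1.95 over these 4 scalings, and that of DN to control between 1.90 and 2.04. Scaling by library size alone also moved the median log2FC of all entries, to −0.20 in treated against control, where miR-204-5p was at 0.76.

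**Figure D3:**
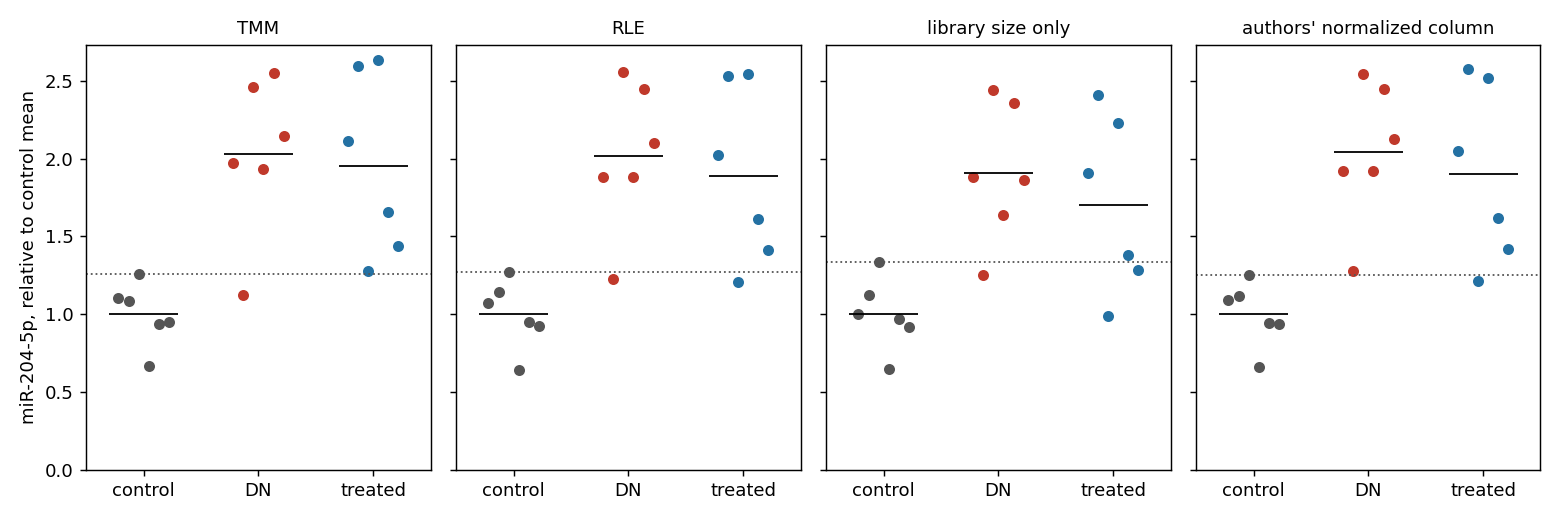
miR-204-5p in each library relative to the control mean under TMM, RLE, library size alone and the authors' normalized column; lines mark group means and the dotted line the highest control library. In each panel 5 of the 6 DN libraries, or all 6 with the authors' column, lie above the dotted line. Of the treated libraries 6 lie above it under TMM, 5 under RLE and in the authors' column, and 4 with library size alone.

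The comparison of treated with untreated DN kidneys addressed the response to germacrone, a compound that the series title connects with protection. No member differed beyond the spread between libraries. miR-204-5p had a log2FC of −0.058 (SE 0.226, 95% interval −0.53 to 0.42; edgeR adjusted p = 0.986), with 3 of 6 treated libraries above the DN median. The interval leaves room for changes of up to −0.53 or 0.42 on the log2 scale. As miR-204-5p was chosen for its level in both groups, this test is not fully independent of the choice. For miR-204-3p the log2FC was −0.31 (SE 0.412, interval −1.18 to 0.55; edgeR adjusted p = 0.895), with 1 of 6 treated libraries above the DN median. For miR-211-5p it was 0.42 (SE 0.438, interval −0.50 to 1.33; edgeR adjusted p = 0.847), with 4 of 6. The wide intervals of the 2 scarce members leave moderate differences undetectable at this depth. By edgeR 0 of 619 entries (0%) passed, with 23 (3.72%) at an unadjusted p under 0.05, and DESeq2 and limma-voom also called 0.

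The direction of miR-211-5p was not stable: with limma-voom and sample weights its log2FC was −0.10 (adjusted p = 0.962, with adjusted p-values of 0.746 to 0.998 over all its alternatives). Leaving out 1 library at a time gave 0.16 to 0.57 for miR-211-5p, with 0.16 without treated 2, 0.22 without DN 1 and 0.26 without treated 1. Without DN 2, the log2FC of treated against DN was −0.22 for miR-204-5p and −0.51 for miR-204-3p. Leaving out DN 5, where miR-204-3p was highest, brought that arm to −0.066.

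**Figure D4:**
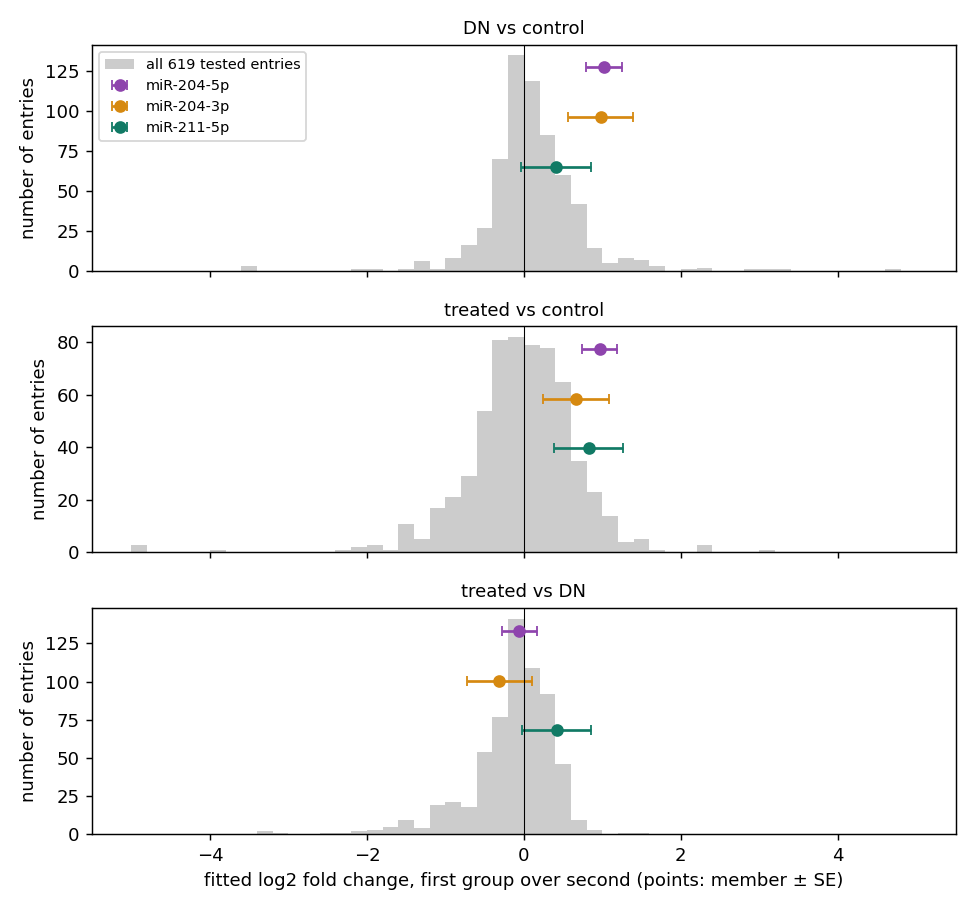
Fitted log2 fold changes of the 3 members (points ± SE) over the distribution of all 619 tested entries (grey bars, number of entries) for each comparison; the height of a point carries no value, and values beyond 5 are drawn at 5. Against control the points lie to the right of 0, between 0.41 and 1.02, and in treated against DN they lie between −0.31 and 0.42.

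Ratios within a library do not depend on scaling. The 5p arm of miR-204 was 118 to 436 times as abundant as the 3p arm in control, 127 to 301 times in the DN group and 152 to 396 times in treated libraries. Pooled over libraries, the ratio was 179 in control, 192 in DN and 229 in treated kidneys (n = 6 each), so the strong preference for the 5p arm was present in each group. On a log2 scale (counts plus 1) it was 7.54 ± 0.627 in control, 7.64 ± 0.450 in DN and 7.73 ± 0.558 in treated libraries (mean ± SD). Treated minus DN was 0.092 (exact permutation test over 924 arrangements, 2-sided, p = 0.760, adjusted over the 2 ratio tests 0.760).

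miR-211-5p amounted to 0.396% to 1.01% of the miR-204-5p count in control, 0.208% to 0.603% in the DN group and 0.269% to 0.754% in treated libraries. Its log2 ratio to miR-204-5p was 0.42 higher in treated than in DN libraries, which did not pass (exact permutation test, 2-sided, p = 0.180, adjusted 0.359). In DN 1 the ratio was lowest and in control 1 highest.

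The leukocyte markers were miR-142a-5p, miR-142a-3p, miR-223-3p, miR-150-5p, miR-155-5p and miR-146a-5p. In the DN and treated groups they were high, relative to the rest of the group, in the libraries low in miR-204-5p. Their summed level was 2789 to 3708 CPM in control, 1345 to 23150 in the DN group and 1472 to 8492 in treated kidneys, and none of the 6 was at 0 in any library. DN 2, the DN library lowest in miR-204-5p, had the highest sum, 23150 CPM, while DN 1 and DN 3 to DN 6 had sums of 1345 to 1906 CPM. Among treated libraries, treated 3 and treated 6 were lowest in miR-204-5p and had the highest sums, 2630 and 8492 CPM, against 1472 to 1696 in the other 4. By group means miR-146a-5p was the largest part of the sum (2333, 2714 and 2186 CPM in control, DN and treated kidneys). On the mean log2 level, relative to each marker's mean over all libraries, treated 3 and treated 6 were at 0.12 and 0.33. The other 4 lay at −0.61 to −0.38 and control libraries at −0.22 to 0.53, so both were within the control range. Between groups, with DN 2 included, 6 of 6 markers had a log2FC above 0 in DN against control (56.5% of all entries). In treated against control 2 of 6 did (49.8%), and in treated against DN 0 of 6 (42.2%). Without removing group means, r between miR-204-5p and the mean log2 level was −0.49 over 18 libraries and −0.80 without DN 2. The part of leukocyte content in the miR-204-5p differences was not tested. In bulk tissue, fewer cells of a type and less RNA per cell cannot be told apart.

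Within groups, the mean log2 level of the smooth muscle and mesangial markers miR-143-3p, miR-145a-5p, miR-199a-3p and miR-214-3p was also high where miR-204-5p was low. The smooth muscle list summed to 27560 to 59990 CPM in control, 23640 to 52840 in the DN group and 42090 to 61510 in treated kidneys, with 0 of 4 markers at 0 in any library. Control 4 and treated 3, the lowest of their groups in miR-204-5p, had the highest sums of their groups. DN 2, also the lowest of its group, had a sum of 34820 CPM but the highest mean log2 level of this list relative to its mean over all libraries, 0.85, where the other DN libraries lay at −0.24 to −0.10. With group means removed, r between miR-204-5p and the mean log2 level of the list was −0.73 for smooth muscle and −0.68 for leukocyte markers over 18 libraries that share the same scaling, −0.70 and −0.56 without DN 2, and −0.82 and −0.60 without control 2, DN 2 and DN 3. By single marker, r over all 18 libraries with group means removed was −0.70 for miR-199a-3p and −0.38 for miR-214-3p. It was weaker for miR-143-3p (−0.25) and miR-145a-5p (−0.13), so the 4 markers did not share the list value equally. Between groups the smooth muscle list had no common direction, with 2 of 4 markers above 0 in each comparison.

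The nerve, adrenal and islet markers did not move together. Their sum was 352.9 to 973.4 CPM in control (median 456.4), 429 to 647.5 in DN (594.8) and 549.6 to 767.6 in treated kidneys (624.9), highest in control 4. Neuronal miR-124-3p had log2FC values of −3.45 in DN and −4.89 in treated kidneys against control (SE 1.26 and 1.34; edgeR adjusted p = 0.529 and 0.148). It reached 324.9 CPM in control 4 and 45.6 in control 6, lay at 0.738 to 10.0 in the other control libraries, and was at 0 in DN 5. Endocrine miR-375-3p (0.36 and 0.60) and miR-7a-5p (0.50 and 0.54) had values above 0 in both diabetic groups, like miR-204-5p, and neuronal miR-9-5p was at −0.34 and 0.11. With group means removed, r with miR-204-5p was −0.68 for miR-124-3p, −0.37 for miR-9-5p, −0.38 for miR-7a-5p and 0.096 for miR-375-3p. The part of these lists in the miR-204-5p differences was not tested.

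For the endothelial and red cell lists r with group means removed was 0.089 and 0.33, and −0.20 and −0.039 without DN 2. Endothelial miR-126a arms summed to 9172 to 24130 CPM in control, 8007 to 23320 in the DN group and 16220 to 25980 in treated kidneys. The red cell markers miR-451a, miR-144-3p and miR-486a-5p summed to 1802 to 3869 CPM in control, 1251 to 4189 in the DN group and 1295 to 5226 in treated kidneys. Liver miR-122-5p was at 5.58 to 118 CPM over the 18 libraries. Striated muscle markers summed to 42.2 to 297.6 CPM, and miR-206-3p, the skeletal muscle member, was at 0 in 6 of 18 libraries.

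**Figure D5:**
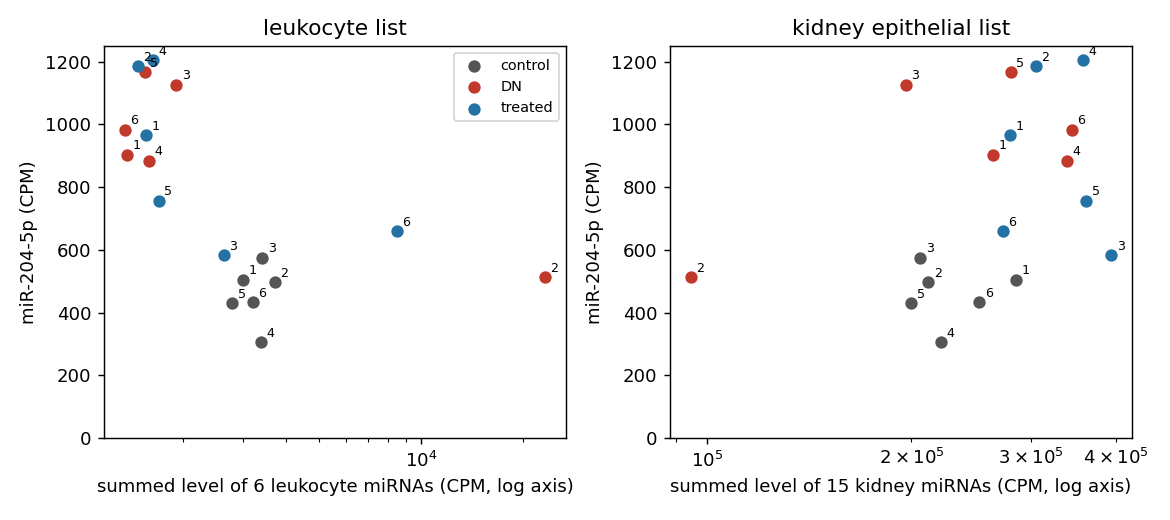
miR-204-5p (CPM, vertical axis) against the summed level of 6 leukocyte miRNAs (left) and of the 15 kidney epithelial miRNAs (right), log horizontal axes, 1 point per library numbered by replicate. DN 2 lies far right on the leukocyte axis at 23150 CPM and far left on the kidney axis at 94540 CPM.

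To set miR-204-5p beside other miRNAs of kidney epithelium, 15 were listed: miR-192-5p, miR-194-5p and miR-215-5p, the Hox-locus miR-10 and miR-196 miRNAs, 3 members of the miR-30 family and 5 of the miR-200 family. The list holds miR-30a-5p, miR-30c-5p and miR-30e-5p but not miR-30b-5p and miR-30d-5p, whose log2FC values were −0.036 and −0.20 in DN against control, 0.34 and −0.14 in treated against control and 0.37 and 0.065 in treated against DN. Of the 15, 14 were tested and 0 passed in any of the 3 comparisons with all libraries (0% of all entries passed in each). In DN against control 11 of 14 had a log2FC above 0 (56.5% of all entries), at a median of 0.14 and a highest value of 0.39, below the 1.02 of miR-204-5p. In treated against control 11 of 14 were above 0 (49.8% of all entries), at a median of 0.51 and a highest value of 0.84, for miR-141-3p of the miR-200 family. In treated against DN 12 of 14 were above 0 (42.2% of all entries), at a median of 0.32, whereas miR-204-5p was at −0.058. Without DN 2 these counts were 13, 11 and 9 of 14, and with library size alone 8, 9 and 11.

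The medians and calls of this list depended on the libraries that stood apart. Without DN 2 the medians were 0.30, 0.50 and 0.14 in DN against control, treated against control and treated against DN, and miR-204-5p was at −0.22 in the last of these. Without control 2, DN 2 and DN 3 the medians were 0.35, 0.40 and 0.097. Without DN 2, 1 of the 14 passed in treated against control, miR-10b-5p of a Hox locus (log2FC 0.59, edgeR adjusted p = 0.0493), where 7 of 630 entries passed (1.11%). Without the 3 libraries, miR-10b-5p (0.52, edgeR adjusted p = 0.0381) and miR-192-5p (0.67, edgeR adjusted p = 0.0335) passed in DN against control, where 51 of 636 entries did (8.02%). In treated against control 3 passed without them, miR-10b-5p (0.58, edgeR adjusted p = 0.0188), miR-30a-5p (0.52, edgeR adjusted p = 0.0442) and miR-30e-5p (0.64, edgeR adjusted p = 0.0403), among 50 of 636 entries (7.86%). In treated against DN 0 of the 14 passed in either case. The list was chosen with earlier results of these data known, and the libraries were left out for their correlations in the same data. The calls against control are therefore a description.

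miR-192-5p, an abundant tubular miRNA, had log2FC values of 0.39, 0.53 and 0.14 in DN against control, treated against control and treated against DN (all 18 libraries; SE 0.362, 0.362 and 0.362; edgeR adjusted p = 0.825, 0.432 and 0.959). miR-200a-3p, which restrains the epithelial-mesenchymal regulators Zeb1 and Zeb2, had values of 0.14, 0.58 and 0.44 (edgeR adjusted p = 0.935, 0.251 and 0.800).

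Taken relative to the mean log2 CPM of the 14 tested kidney epithelial miRNAs, a measure chosen after the values were seen, miR-204-5p ran from −4.57 to −3.43 in control and from −3.33 to −2.41 in DN, without overlap. On this measure 1 of 605 entries, miR-204-5p itself, had every DN library above every control library (0.165%). This comparison was known when the family was chosen, and the measure was picked after its values were seen. Being the only such entry therefore supports nothing further. DN 2, low in miR-204-5p and lower still in the other kidney miRNAs, lay at −2.66, and DN 3 was highest at −2.41. Treated libraries ran from −4.13 in treated 3 to −2.92, and overlapped both other groups, while 3 of 605 entries (0.496%) had every treated library above control. Treated 3 was the library with the highest summed level of the kidney list, 394100 CPM. The list itself differed between groups, so this is a change of reference and not an independent measurement.

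Among 325 mouse miRNAs at a mean of at least 10 CPM, the 5 most like miR-204-5p over the 18 libraries, by Pearson's r of log2 CPM, were miR-3968 (0.68), miR-802-5p (0.66), miR-221-5p (0.63), miR-106a-5p (0.61) and miR-28a-5p (0.59). The median r over all 325 was 0.022. With group means removed, r was 0.62 for miR-3968 and 0.15 for miR-802-5p, 0.37 for miR-221-5p, 0.39 for miR-106a-5p and 0.22 for miR-28a-5p. The likeness of miR-802-5p, known for its rise in obese mouse liver, lay mainly between groups: it was at 35.1 ± 23.3 CPM in control, 184 ± 112 in DN and 172 ± 61.4 in treated kidneys. Without DN 2, r with group means removed was 0.40 for miR-3968, −0.010 for miR-802-5p, 0.018 for miR-221-5p, 0.095 for miR-106a-5p and −0.070 for miR-28a-5p, and without control 2, DN 2 and DN 3 it was 0.65, 0.35, 0.090, 0.13 and 0.12. The level of miR-3968 was 570.8 ± 91.7, 792.8 ± 269 and 716.7 ± 186 CPM in control, DN and treated kidneys (mean ± SD, n = 6 each). All points share library depth and the same scaling, so these values are a description. Within the family, r with miR-204-5p was 0.68 for miR-204-3p and 0.66 for miR-211-5p, and 0.46 and 0.70 with group means removed, or 0.23 and 0.70 without DN 2. Since the whole count of miR-211-5p could consist of reads that match both sequences, its r cannot be read as common expression of the 2 hairpins.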

How the data were processed

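Per the labels' protocols, Trizol-extracted RNA was made into TruSeq small RNA libraries for an Illumina HiSeq, and the reads were filtered by ACGT101-miR against adapter dimers, junk, repeats and common RNA families. Trimmomatic 0.32, BWA, SAMtools and edgeR are listed in the submitters' processing notes. No source used here states the genome build, the miRBase release or how reads matching several entries were handled. The deposited raw columns held estimated counts, rounded here to whole numbers. The deposited normalized columns held a signal, the raw value times 1 factor per library, used only as another scaling.

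Of 1534 entries, 350 unnamed ones were left out. Some miRNAs hold several entries with the same counts, all of which were kept. Shares over the 619 entries therefore count such miRNAs more than once. A single edgeR 4.0.16 fit (R 4.3.3) used all 18 libraries with group as factor: filterByExpr (minimum count 10, minimum total 15), TMM, legacy quasi-likelihood test, Benjamini-Hochberg adjustment over the 619 entries kept, threshold 0.05. SE values come from the working weights of the fit, without a prior count. For log2 CPM a prior count of 2 was used. Ratios were compared by exact permutation. The fit was checked on simulated data. By chi-square, all 45 within-group library pairs differed by more than counting noise (lowest value per degree of freedom 56.2).

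The members and lists were chosen with earlier results of these data known. Named miRNAs were the members, their seed relatives, the 5 nearest in pattern, miR-192-5p and miR-200a-3p, and any kidney list entry that passed. Marker miRNAs came from fixed lists; miR-141-3p was named after its value was seen. Alternatives were RLE factors, unscaled library sizes, no filter, limma-voom (limma 3.58.1), DESeq2 1.42.0, a minimum of 10 CPM in 6 libraries, a block for replicate number, fits of single pairs of groups, summing entries that share a name, and leaving libraries out. The authors' factors, the kidney list as a reference and correlations without the outlying libraries were added after seeing the data. miR-30b-5p, miR-30d-5p and the single nerve, adrenal and islet markers were named after their values were seen. Values of single smooth muscle markers were also added then.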

Additional observations from a re-analysis of the deposited data

How the results depend on the processing

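Against control, the log2FC of all 3 members stayed above 0 in every alternative run: 0.93 to 1.17 for miR-204-5p in DN and 0.76 to 1.07 in treated kidneys, 0.75 to 1.37 and 0.44 to 0.93 for miR-204-3p, and 0.27 to 0.68 and 0.57 to 1.07 for miR-211-5p. In treated against DN no member passed under any of them, and miR-204-5p (−0.22 to −0.0059) and miR-204-3p (−0.58 to −0.066) stayed below 0. miR-211-5p reversed to −0.10 with limma-voom; the cause was not tested. The filter of 10 CPM in 6 libraries removed miR-204-3p and miR-211-5p, so it gives no value for them. Entries called in DN against control were 0, but 2 with that filter, 4 with DESeq2 (121 entries without an adjusted p), 51 without control 2, DN 2 and DN 3, and 91 by limma-voom. In treated against control they were 0, but 24 with DESeq2 (97 without an adjusted p), 106 with limma-voom, 56 in a fit of only these 2 groups and 50 without the 3 libraries; the causes were not tested. Leaving out 1 library gave 0 to 6 calls in DN against control, 0 to 7 in treated against control and 0 to 0 in treated against DN, with 6 and 7 without DN 2, 6 and 3 without DN 3, and 1 and 0 without control 2. The arm ratio, treated minus DN, ranged from −0.064 to 0.21 with 1 library left out, below 0 without DN 5 (−0.044), treated 1 (−0.016) or treated 4 (−0.064), and the ratio of miR-211-5p to miR-204-5p from 0.26 to 0.58. With the replicate number as a block, log2FC values in treated against DN were −0.056, −0.30 and 0.38 for miR-204-5p, miR-204-3p and miR-211-5p (edgeR adjusted p = 0.998 each), the block left the count of calls at 0 in all 3 comparisons, and the paired ratio tests gave p = 0.781 and 0.219 (exact sign-flip permutation). Same-numbered libraries of different groups had correlations of −0.33 to 0.26 of their deviations from group means, above 0.1 in 3 of 18 pairs. Of the 18 libraries, 0 correlated best with their own number. These values showed no likeness by number, but a weak factor common to same-numbered libraries could go unseen. Depth limits miR-204-3p (6 to 41 counts) and miR-211-5p (5 to 35).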

Other observations

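The table also held 2 entries under the name mdo-miR-204, the miR-204 of the opossum, which are not members and did not pass the filter on low counts. The first had 5 counts in treated 4 and 0 in every other library. The second was above 0 in 2 of 6 control libraries (12 counts in control 2 and 5 in control 3), in 5 of 6 DN libraries (0 in DN 2 and 5 to 15 in the others) and in 6 of 6 treated libraries (7 to 22). Summed over a group, it had 17 counts in control, 50 in DN and 69 in treated kidneys. The sequences behind these entries are not stated, and no test was made of them. No library lay far enough from its group in the levels of the 3 members, the arm ratio or the ratio of miR-211-5p to miR-204-5p to exceed Dixon's critical value for 6 values, over 15 groups examined. The levels were taken in CPM. On a log2 scale the gap between DN 2 and its group in miR-204-5p is relatively wider, so its place there was not settled.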
